A study of Mus musculus with 6 samples.

Results

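The AP-1 and immediate early factors are 10 transcription factor genes: Jun, Junb and Jund, Fos, Fosb, Fosl1 and Fosl2, Atf3, Egr1 and Myc. They were chosen by symbol, through the accession that each probe of the array carries, from 23462 genes with a named probe. All 10 had at least 1 probe, 15 probes in all, and 9 of the 10 were among the 13496 genes tested. Each of these 9 was well above background on all 6 arrays, so none entered the test through 1 group alone, while Fosl1 stood well above background on none of the arrays. RNA came from intestinal crypts isolated from mice of mixed strain whose Arid1a alleles are both flanked by recombination sites (Arid1a f/f). The 3 control samples, titled A1 to A3, carry these alleles only. The 3 knockout samples, VA1 to VA3, carry Villin-Cre as well, a recombinase driven by a promoter of the gut epithelium, so stromal and immune cells should keep Arid1a. Arid1a encodes a subunit of the BAF chromatin remodelling complex. The ages of the mice are not used here. Nothing says that samples of a group came from separate mice, and the p-values then reflect only sample-to-sample spread, which may be technical.

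AP-1 is a family of dimers in which a Jun protein pairs with itself, a Fos protein or an Atf protein through a leucine zipper, and the dimer binds DNA through the adjoining basic region. Fos, Junb, Atf3, Egr1 and Myc are immediate early genes, transcribed soon after a growth factor, wound or stress signal without new protein synthesis, largely through MAP kinases acting on factors such as Srf. They are known to respond to tissue dissociation too, and isolated crypts have been through one. In the crypt, Myc is a target of Wnt signalling and drives growth of the dividing progenitors.

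Group labels were checked first on the targeted gene. Arid1a signal was 3.71, 3.47 and 4.01 on the 3 control arrays, numbered 1 to 3, and 2.20, 2.07 and 2.51 on the 3 knockout arrays, in log2 units relative to the 75th percentile of each array, the scale of all levels below. Its log2 fold change, knockout minus control, was -1.47 ± 0.21 (SE, n = 3 per group; limma adjusted p = 0.00733); where its 1 probe lies relative to the deleted exons is unknown here, so it is no strict check of the labels. Source name and genotype contradict title and description for knockout 2 and control 3; on Arid1a both arrays lay with the group in their title, which is followed here. Controls 1 and 2 and knockouts 1 and 2 were on slide 1, and control 3 and knockout 3 on slide 2, which was scanned on another day. On each array 41.7% to 54.7% of probes stood well above background.

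Of the 9 tested members, 3 rose in the knockout and 0 fell at an adjusted p under 0.05, where 7.28% of all genes tested rose and 7.62% fell. The members that rose were Junb, Atf3 and Egr1, by 1.98-fold, 2.56-fold and 2.16-fold. In all 3 of these genes every knockout array lay above every control array, which held for 19% of all genes; the reverse, every knockout array below, held for 20.7% of all genes and for 0 members. The log2 fold changes of the 9 ranged from -0.76 for Myc to 1.36 for Atf3, with a median of 0.41 beside -0.012 over all genes. At an unadjusted p under 0.05 there were 4 higher members, the fourth being Fos, and 0 lower.

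**Figure D1:**
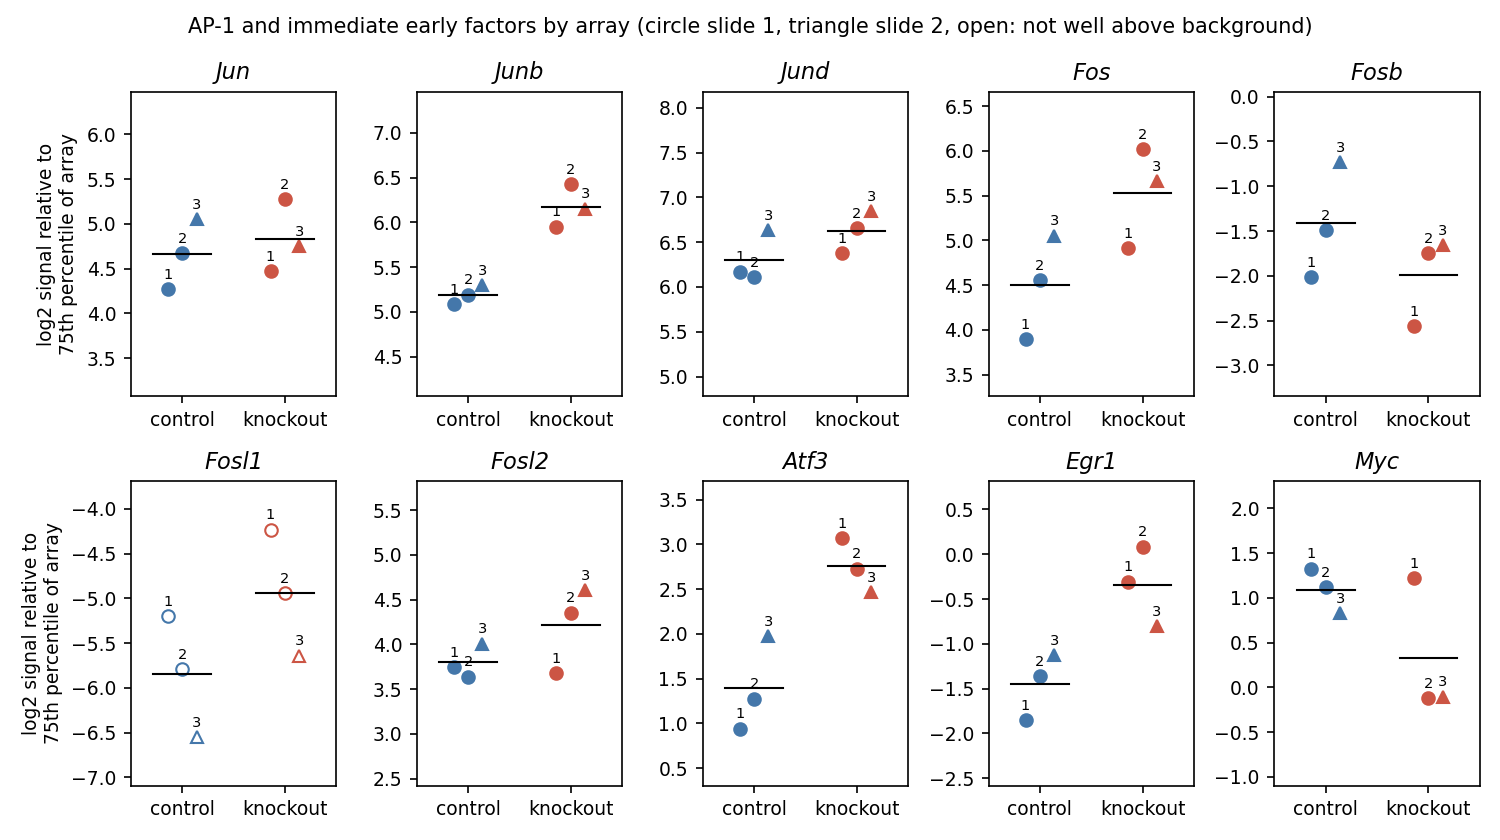
Log2 signal relative to the 75th percentile of the array (vertical axis) for each member on control and knockout arrays 1 to 3; bars are group means, circles slide 1, triangles slide 2, and every panel spans the same number of log2 units. Junb, Atf3 and Egr1 have no overlap between groups, Fos overlaps through knockout 1 (4.91) and control 3 (5.05), and the open points of Fosl1 were not well above background.

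Junb was the member with the smallest p. It encodes a Jun protein that forms AP-1 dimers and is induced early by growth factors and cytokines. Its signal was 5.09, 5.19 and 5.30 on controls and 5.95, 6.42 and 6.15 on knockouts, listed in the order of their numbers as throughout. The controls lay close together and all 3 knockouts stood clear of them, with means of 5.19 ± 0.11 and 6.18 ± 0.24 (SD, n = 3). The log2 fold change was 0.98 ± 0.18 (SE; limma adjusted p = 0.0165). A second, dimmer Junb probe gave -1.58, -1.50 and -1.41 on controls and -0.56, 0.48 and 0.0055 on knockouts, a difference of 1.47 in the same direction, again without overlap. Within slides the difference on the brighter probe was 1.05 on slide 1 and 0.85 on slide 2.

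The other Jun genes did not pass the test. Jun, the founding AP-1 subunit, gave 4.27, 4.67 and 5.05 on controls and 4.47, 5.27 and 4.75 on knockouts. The groups overlapped widely, and the log2 fold change of Jun was 0.17 ± 0.28 (adjusted p = 0.703); it was 0.40 on slide 1 and -0.30 on slide 2, and -0.082 when arrays were scaled to their median. Jund, the Jun family member that most cells express steadily, gave 6.17, 6.11 and 6.64 on controls and 6.38, 6.66 and 6.85 on knockouts, with 0.32 ± 0.21 (adjusted p = 0.317). Control 3 lay among the knockout arrays for Jund. Its second probe differed by 0.28.

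Fos, the classic immediate early gene and partner of the Jun proteins, gave 3.90, 4.55 and 5.05 on controls 1 to 3. On knockouts 1 to 3 Fos gave 4.91, 6.02 and 5.66. Knockout 1 lay below control 3, while 8 of the 9 pairs of a knockout with a control array had the knockout higher. The log2 fold change of Fos was 1.03 ± 0.38, a 2.04-fold difference, and did not pass (adjusted p = 0.115). It is as large as that of Junb, but the controls alone spanned 1.15 log2 units, against 0.21 for Junb. On slide 1 the Fos difference was 1.24 and on slide 2 it was 0.61. Without knockout 1 it was 1.34 (adjusted p = 0.0393), in a fit that called 4023 of all genes, against 2011 with all arrays. The adjusted p of Fos ranged from 0.0393 to 0.303 with 1 array left out and from 0.0222 to 0.999 over 15 other alternatives.

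The remaining Fos genes showed no called change. Fosb, a paralog of Fos that is also an early gene, gave -2.02, -1.49 and -0.73 on controls and -2.56, -1.75 and -1.66 on knockouts. Its log2 fold change of -0.58 ± 0.39 (adjusted p = 0.324) had the opposite sign to that of Fos, and the groups overlapped. The other Fosb probe was well above background on none of the arrays. Fosl2, a longer-lived Fos relative, gave 3.74, 3.64 and 4.01 on controls and 3.68, 4.35 and 4.60 on knockouts. Its log2 fold change was 0.41 ± 0.27 (adjusted p = 0.304), 0.47 on the dimmer probe, with knockout 1 among the controls. Without knockout 1 the Fosl2 log2 fold change was 0.68 (adjusted p = 0.0425, in a range of 0.0425 to 0.616 with 1 array left out). The fit without knockout 1 called 4023 of all genes. Fosl1, another Fos relative, was well above background on 0 of 3 control and 0 of 3 knockout arrays, so no fold is given.

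Atf3, a stress-induced factor that pairs with Jun proteins, had the largest log2 fold change among the members. It gave 0.94, 1.28 and 1.97 on controls and 3.07, 2.73 and 2.46 on knockouts. All knockouts lay above all controls, with means of 1.40 ± 0.53 and 2.75 ± 0.30 (SD, n = 3). The log2 fold change of Atf3 was 1.36 ± 0.30 (SE; limma adjusted p = 0.0311). The difference was 1.79 on slide 1 and 0.49 on slide 2, where control 3 had the highest control value and knockout 3 the lowest knockout value.

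Egr1, a zinc-finger factor induced through Srf and MAP kinases, followed a similar course. It gave -1.85, -1.36 and -1.13 on controls and -0.31, 0.09 and -0.80 on knockouts. The groups did not overlap, although knockout 3 and control 3 lay only 0.33 apart, against a difference of 1.498 on slide 1. The log2 fold change of Egr1 was 1.11 ± 0.29 and lay just inside the threshold (limma adjusted p = 0.0487). Adding the slide as a block raised this to 0.0607, within a range of 0.0123 to 0.999 over 15 alternatives other than leaving out 1 array.

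The calls of Junb, Atf3 and Egr1 were lost together when samples were grouped by source name and genotype, when both arrays with contradicting labels were left out, when arrays were scaled to their median, when dim probes were kept, and without control 1, control 2 or knockout 2. Without control 3 the calls of Junb and Egr1 were lost as well (adjusted p = 0.0514 and 0.0797), and without knockout 1 that of Egr1 (0.0596). With 1 array left out the adjusted p ran from 0.0101 to 0.0774 for Junb, 0.0258 to 0.102 for Atf3 and 0.0341 to 0.157 for Egr1, and the log2 fold changes kept their sign. Without both contradicting arrays the log2 fold changes were 0.91, 1.66 and 1.05, with limma adjusted p of 0.143, 0.0846 and 0.183, in a fit that called 320 of all genes. Scaling to the median lowered the median gene by 0.25, to -0.26; relative to that gene Junb, Atf3 and Egr1 stood at 0.99, 1.37 and 1.12.

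**Figure D2:**
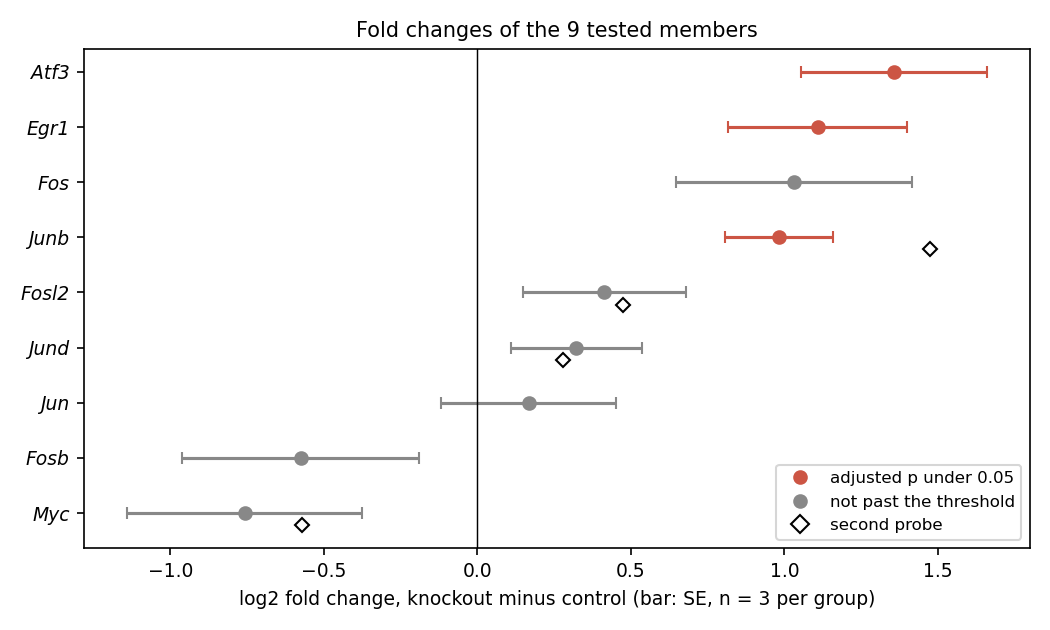
Log2 fold change, knockout minus control (horizontal axis; bars are SE, n = 3 per group), of the 9 tested members, with the second probe as a diamond where at least 3 arrays were well above background. Junb, Atf3 and Egr1 (red) passed an adjusted p of 0.05; Fos has a similar estimate, 1.03, with a wider SE of 0.38.

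Myc, which pairs with Max and promotes ribosome production and growth, was the member with the lowest estimate. It gave 1.32, 1.12 and 0.83 on controls and 1.22, -0.12 and -0.10 on knockouts. Knockouts 2 and 3 lay below every control while knockout 1 lay among them. The log2 fold change of Myc was -0.76 ± 0.38 and did not pass (adjusted p = 0.207). On a dimmer probe knockouts 2 and 3 again lay below every control and knockout 1 did not, with -1.86, -1.79 and -2.27 on controls and -1.74, -3.29 and -2.62 on knockouts. With knockout 1 left out Myc stood at -1.20 (adjusted p = 0.0116, in a range of 0.0116 to 0.457 over the 6 arrays left out in turn). That fit without knockout 1 called 4023 of all genes, against 2011 with all arrays.

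Promoter windows of Fos, Junb, Atf3 and Jun are shown, the first 3 for their higher estimates and Jun for a member near 0. RefSeq gave windows on GRCm38.p6, from 250 bases before to 50 after the annotated start, for 7 of the 10 members. Capitals mark TGACG, part of the site of CREB and ATF factors (CGTCA on the other strand), and TATAAA; each line runs 5′ to 3′ on the strand of the gene.
Fos, chr12:85473640-85473939, plus strand: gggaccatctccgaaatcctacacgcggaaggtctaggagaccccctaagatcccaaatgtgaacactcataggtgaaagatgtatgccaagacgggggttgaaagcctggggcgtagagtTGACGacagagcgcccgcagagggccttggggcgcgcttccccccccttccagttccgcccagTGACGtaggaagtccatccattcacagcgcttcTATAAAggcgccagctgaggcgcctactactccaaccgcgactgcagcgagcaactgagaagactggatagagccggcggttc
Junb, chr8:84978699-84978998, minus strand: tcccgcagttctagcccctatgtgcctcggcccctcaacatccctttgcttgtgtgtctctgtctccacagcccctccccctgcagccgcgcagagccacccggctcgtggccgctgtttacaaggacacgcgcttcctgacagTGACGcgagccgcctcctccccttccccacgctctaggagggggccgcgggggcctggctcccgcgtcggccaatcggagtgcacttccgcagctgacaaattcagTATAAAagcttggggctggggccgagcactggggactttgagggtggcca
Atf3, chr1:191183284-191183583, minus strand: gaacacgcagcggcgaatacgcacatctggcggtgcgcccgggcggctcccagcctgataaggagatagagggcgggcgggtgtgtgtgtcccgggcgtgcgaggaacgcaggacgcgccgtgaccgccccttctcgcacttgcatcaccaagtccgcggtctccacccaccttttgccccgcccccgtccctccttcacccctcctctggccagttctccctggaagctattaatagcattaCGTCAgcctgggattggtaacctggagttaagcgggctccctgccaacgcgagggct
Jun, chr4:95052173-95052472, minus strand: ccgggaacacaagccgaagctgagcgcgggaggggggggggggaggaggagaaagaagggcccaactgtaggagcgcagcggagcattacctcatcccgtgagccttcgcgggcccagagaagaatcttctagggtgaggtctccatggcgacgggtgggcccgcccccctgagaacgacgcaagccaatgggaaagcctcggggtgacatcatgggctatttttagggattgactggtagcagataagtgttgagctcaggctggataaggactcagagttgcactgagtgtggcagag

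TGACG was found on either strand in 4 of the 7 windows, those of Fos, Fosb, Junb and Atf3, and in 20.8% of all 32851 windows of that length. Fos held 2 copies, the second starting at base 185 of the window. TATAAA stood in the windows of Fos and Junb and in 13.6% of all windows. Relative to the annotated start it began at -33 in Fos and at 0 in Junb, so the 2 matches differ in position. The full palindrome TGACGTCA, which contains TGACG, was in 0 of the 7 windows and 1.79% of all. TGACTCA, an AP-1 site, was in 0 of the 7 and 5.20% of all. Both were searched as exact letters, so a near match such as tgacatca in the Jun window was not counted. The CArG box, the site of Srf, was in 0 of the 7 and 1.63% of all. Sequence further upstream than the windows was not searched, and Egr1 had no window. The CArG count therefore does not show that Fos or any other member lacks an Srf site. These matches describe letters only: Fosb carries TGACG as Fos, Junb and Atf3 do, and had a negative fold change that did not pass.

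The median SD of the members between arrays of 1 group was above that of all genes, though not for every member. It was 0.37 among controls and 0.44 among knockouts, beside 0.20 and 0.30 over all genes. Among controls the SD of Fosb, Fos and Atf3 was above that of 94.3%, 92.8% and 91.2% of all genes, while those of Fosl2 and Junb were above 48.1% and 19.1%. Among knockouts the SD of Myc and Fos was above that of 91.2% and 81.3% of all genes, and those of Atf3, Junb and Jund above 51.4%, 38.9% and 38.5%. Control 3 was the highest control for 8 of the 9 members and control 1 the lowest for 6. The order with control 1 lowest and control 3 highest held for 6 of the 9, namely Fos, Fosb, Jun, Junb, Atf3 and Egr1, and for 16.2% of all genes. Among knockouts, knockout 1 was the lowest for 6 of the 9 members, and knockout 2 the highest for 4. Averaged over the 9 members, the deviation from the control mean was -0.28, -0.042 and 0.32 on controls and 0.30, 0.62 and 0.43 on knockouts, so control 3 and knockout 1 were level.

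A list of heat shock and other stress genes was set beside the members, and whether either list reads handling was not tested. Of 20 tested genes of heat shock and handling stress, 0 passed in limma, with 2 higher and 3 lower at an unadjusted p under 0.05, and the median was -0.17. Array means of this list were -0.26, -0.081 and 0.34 on controls and -0.38, 0.18 and 0.25 on knockouts. In these means control 1 and knockout 1 were the lowest of their group and the 2 groups overlapped, as for the members. Single genes outside the rule for named genes weigh on these means. Sgk1 stood at 2.56 on knockout 1 and between 5.02 and 5.64 on the other arrays. Hmox1 stood at 3.36 on knockout 2 and between -2.40 and -0.62 on the other arrays. Hspa1a and Hspa1b weigh on them too. The inducible chaperone Hspa1a, singled out after its values were seen, gave -1.53, 0.21 and 3.31 on controls and -1.66, -0.52 and 1.68 on knockouts. The near-identical Hspa1b, which its probe may not tell apart, gave -1.11, 0.54 and 3.24 on controls and -0.96, -0.70 and 0.96 on knockouts. Both were highest in each group on the slide 2 array, an array on which Fos was highest among controls but not among knockouts. Smallest p values in the list belonged to Mt1, a metallothionein, at 1.26 ± 0.38 (adjusted p = 0.0672), Hsf1, the heat shock regulator, at -0.61 ± 0.22, Dnajb4 at 0.95 ± 0.35 and Hsph1 at -0.97 ± 0.36. Whether handling had a part in the differences of Junb, Atf3, Egr1 or Fos was not tested.

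**Figure D3:**
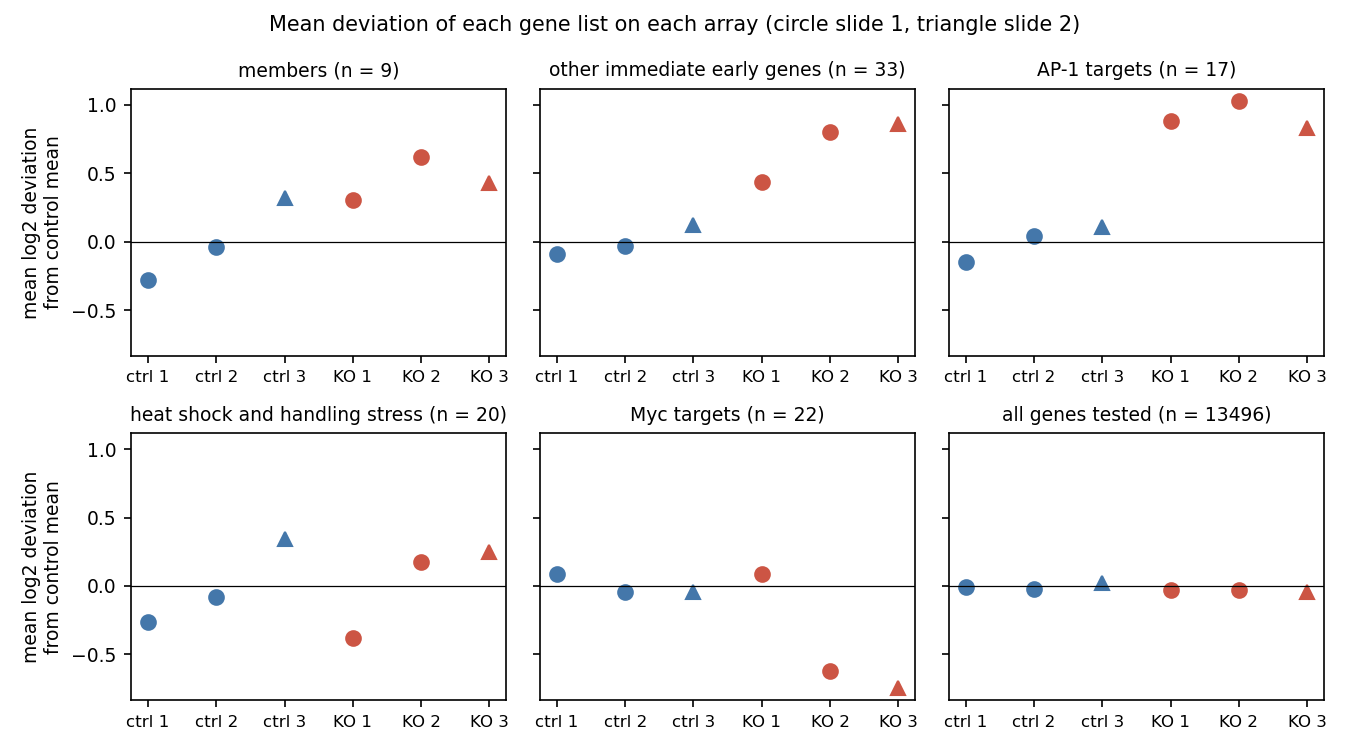
Mean log2 deviation from the control mean (vertical axis) of the members, 4 other lists and all genes tested, on each array; blue is control, red knockout, circles slide 1 and triangles slide 2. Members on control 3 (0.32) and knockout 1 (0.30) are level, and heat shock genes overlap between groups. Means of other immediate early genes and of AP-1 targets are higher on all 3 knockout arrays. These means include genes that needed their knockout arrays to pass the filter on dim probes, among them Il11, Ereg and Plaur.

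Other immediate early genes included several larger changes than the members did. Of 33 tested (40 listed), 7 rose, 1 fell and 25 did not pass, with a median of 0.34. Over all genes 7.28% rose and 7.62% fell. Plk3, a stress-responsive polo-like kinase, gave 0.70, 0.76 and 0.87 on controls and 3.11, 3.99 and 3.48 on knockouts, a log2 fold change of 2.75 ± 0.24 (adjusted p = 0.00157). Csrnp1, a nuclear protein induced by axin, rose by 2.35 ± 0.24 and the kinase Pim1 by 1.26 ± 0.16. Dusp1, a phosphatase that switches off MAP kinases, rose by 2.25 ± 0.31. Dusp6, Rhob and Ppp1r15a also rose, by 2.24, 1.78 and 1.09, and Zfp36l1, an mRNA decay factor, fell by 0.99 on the probe used, beside 0.035 on another probe; these 4 complete the list's calls and lie outside the rule for named genes. Other early genes stayed under the threshold: Ier2 had 0.20 ± 0.17 and Nr4a1, an orphan nuclear receptor, -0.14 ± 0.82, both chosen after their values were seen. Nr4a1 stood at 0.31 on control 1 and between -2.79 and -1.62 on the other 5 arrays. The number of this list that passed, 8, was 13 without knockout 1 and 6 or 7 without any other array, and 4 without both arrays with contradicting labels. Over all genes the calls were 2011, and 4023 without knockout 1.

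**Figure D4:**
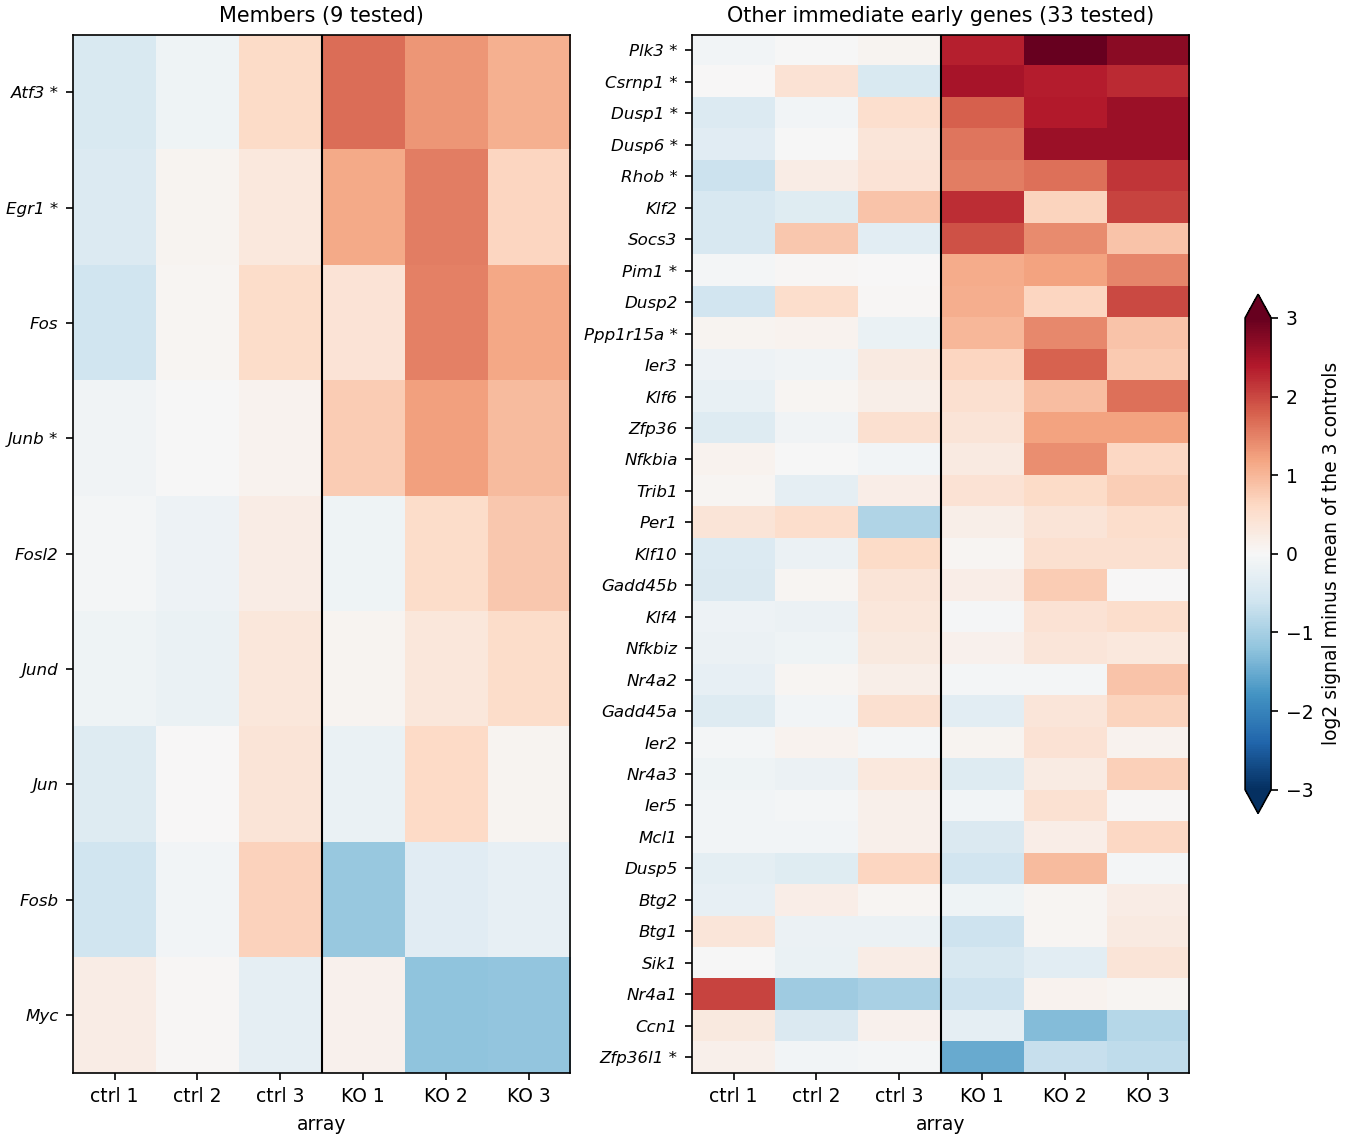
Log2 signal minus the mean of the 3 controls for the 9 tested members (left) and 33 other immediate early genes (right), 1 column per array, sorted by the knockout mean; a star marks an adjusted p under 0.05. Plk3, Csrnp1, Dusp1 and Dusp6 are higher on all 3 knockout arrays, and Nr4a1 is high on control 1 alone.

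Among 19 tested dimer partners and relatives with a basic leucine zipper, 4 rose and 2 fell, with a median of 0.35. The shares over all genes were 7.28% and 7.62%. Jdp2, a repressor that dimerises with Jun, gave -1.09, -0.86 and -0.23 on controls and 3.04, 2.27 and 2.84 on knockouts, a log2 fold change of 3.44 ± 0.30 (adjusted p = 0.00152). Batf2, an interferon-inducible partner of Jun, rose by 1.96 ± 0.25, and Maff, a small Maf protein, by 1.47 ± 0.20. Crem, a cAMP-responsive factor with activating and repressing isoforms, rose by 2.003 ± 0.16 on its brightest probe, whereas its 3 other probes ranged from -0.84 to 1.501. The 2 that fell were Cebpb, by 0.94, and Creb1, by 0.73 on its brightest probe while its other probes stood at 0.17 and 0.43; both lie outside the rule for named genes. The 6 calls of this list were 4 without control 1, control 3 or knockout 2, and 3 without both arrays with contradicting labels.

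Upstream kinases and Srf factors were near the shares over all genes, of which 7.28% rose and 7.62% fell. Of 26 tested, 1 rose and 2 fell, with a median of 0.022. Map2k4, a kinase that activates the Jun kinases, rose by 0.93 ± 0.20, and Mapk9, one of those Jun kinases, fell by 1.20 ± 0.25. Mrtfb, a coactivator of Srf, fell by 1.01 ± 0.21. The 3 calls were 0 without control 1, control 2 or knockout 2, 1 without control 3 and 5 without knockout 1 (4023 of all genes). They were 0 without both arrays with contradicting labels and 0 on slide 1 alone.

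Known AP-1 targets held the largest differences of the lists given here. Of 17 tested (35 listed), 6 rose and 1 fell, where 7.28% of all genes rose and 7.62% fell. The median was 0.73, with estimates from -2.74 to 4.39. Areg, which encodes the EGF receptor ligand amphiregulin, gave 0.50, 0.52 and 0.53 on controls and 4.91, 5.004 and 4.81 on knockouts. Its log2 fold change was 4.39 ± 0.14, a 21.0-fold rise (adjusted p = 0.000209). Ereg, the related ligand epiregulin, rose by 3.60 ± 0.23, but only 1 of its 3 control arrays was well above background, so the size of this fold is less certain. Phlda1, an early-induced growth regulator, rose by 2.96 ± 0.28. Il11, a cytokine of epithelial repair, had 0 of 3 control arrays well above background, and its level in knockouts was at least 2.77-fold that in controls (adjusted p = 0.0113). Il11 passed the filter on dim probes only through the knockout arrays, so its adjusted p and its count among the 6 support nothing. Ereg and Plaur, with 1 and 2 of 3 control arrays well above background, also needed their knockout arrays to pass it. The median and the array means of the list include them and Il11. Requiring all 6 arrays leaves out Il11, Ereg and Plaur, and 5 genes of the list were then called in either direction. Outside the rule for named genes, Plaur and Itgav rose by 2.56 and 1.27 and Mmp7, the Paneth cell matrilysin, fell by 2.74. The 7 calls were 4 without control 1 or control 2, 12 without knockout 1, and 4 without both arrays with contradicting labels. Without knockout 1, 4023 of all genes were called, against 2011 with all arrays.

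In the Myc network, of 16 tested, 2 rose, 2 fell and 12 did not pass, with a median of 0.068. Of all genes 7.28% rose and 7.62% fell. Mycn and Mycl, the paralogs of Myc, fell by 2.29 ± 0.36 and 2.09 ± 0.42. Mycn gave 0.46, -0.77 and -0.30 on controls and -2.05, -2.59 and -2.84 on knockouts, with no overlap. Mycl was not called without control 1, control 2, control 3 or knockout 2, nor Mxi1 without control 1, control 2, knockout 2 or knockout 3. The 4 calls were 7 without knockout 1, 2 without control 1, control 2 or knockout 2, 0 without both arrays with contradicting labels and 1 on slide 1 alone. Mlxipl, a glucose-responsive factor of the extended network, rose by 1.15 ± 0.16, and Mxi1, an antagonist of Myc, by 1.32 ± 0.33. None of the 22 tested Myc targets passed in limma (0 genes), with 1 higher and 5 lower at an unadjusted p under 0.05, and 18 of the 22 were negative with a median of -0.49. Array means of the targets were 0.088, -0.043 and -0.046 on controls and 0.091, -0.62 and -0.75 on knockouts, so knockout 1 was level with the controls as it was for Myc itself. Polr1b, a subunit of RNA polymerase I, had -1.15 ± 0.38, Cdk4 -1.07 ± 0.36, the nucleolar protein gene Fbl -0.93 ± 0.37 and the glycolytic Eno1 0.68 ± 0.24. Without knockout 1, 15 of the 22 targets passed, in a fit that called 4023 of the 13496 genes tested, against 2011 with all arrays.

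**Figure D5:**
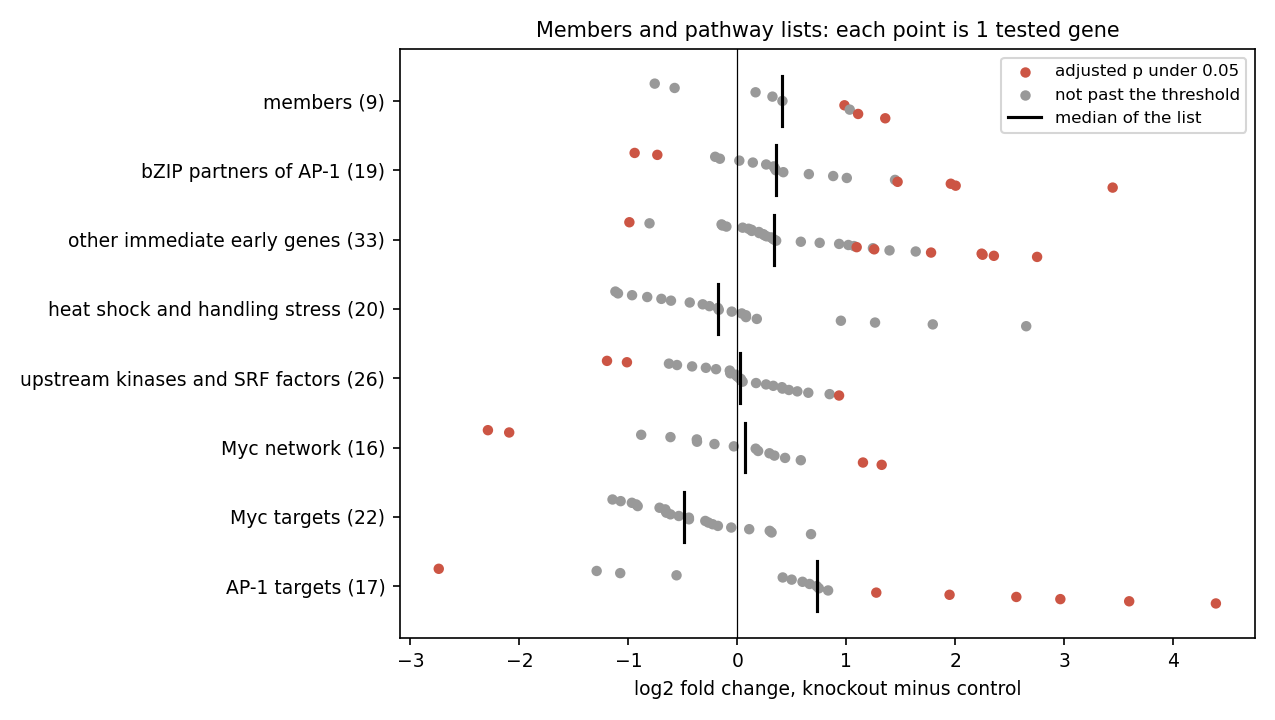
Log2 fold change, knockout minus control (horizontal axis), of every tested gene in the member list and 7 pathway lists; red points passed an adjusted p of 0.05 and black bars are list medians. Medians run from -0.49 for Myc targets to 0.73 for AP-1 targets, and no heat shock gene or Myc target is red. The AP-1 target median includes Il11, Ereg and Plaur, which needed their knockout arrays to pass the filter on dim probes.

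Markers of other cells are given beside these counts, since fewer cells of a type and less RNA per cell cannot be told apart in bulk samples. All 10 epithelial markers were tested, 0 rose and 1 fell, and their sums ran from 1873.4 to 2419.6 on controls and 2134.1 to 3261.1 on knockouts. Of 10 markers of T cells and intraepithelial lymphocytes, 0 passed, and their summed linear level ran from 35.9 to 127.0 times the 75th percentile on controls and from 48.3 to 126.9 on knockouts. Of 10 stromal and endothelial markers, Col1a1, Col3a1, Pdgfra, Dcn, Lum, Des and Cdh5 were not well above background on any array, and of the 2 tested 1 rose and 0 fell, with sums of 26.5 to 39.1 on controls and 45.1 to 68.6 on knockouts. Of 10 myeloid markers 6 were tested, 1 rose and 1 fell, and the sums were 63.5 to 120.3 and 103.4 to 192.2; Adgre1, Cd163 and C1qa were not well above background on any array. Crypt base stem cell markers, 9 of 10 tested, had 0 that rose and 3 that fell, a median of -2.05 and sums of 65.1 to 88.3 on controls and 11.9 to 38.8 on knockouts. Of 10 absorptive villus markers 0 rose and 1 fell, the lowest log2 fold change was -5.10, and for 3 all knockouts were below all controls. Their sums overlapped at 2999.8 to 3779.4 and 2455.6 to 4634.2. The part of stromal, myeloid and stem cells in the differences of the members was not tested.

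The genes with the array pattern nearest to that of Fos were found by the root mean square difference of log2 values, each gene centred on its own mean over the 6 arrays. Over 12618 ranked genes the median difference was 0.76. The nearest were Kif13b at 0.074, Lrrfip1 and Zfp36 at 0.16, Ap3m2 at 0.17 and Alppl2 at 0.18. Zfp36 gave 3.14, 3.42 and 3.99 on controls and 3.90, 4.73 and 4.72 on knockouts and was also on the list of immediate early genes. Kif13b and Ap3m2 were dim, each with 1 of 3 control arrays well above background. None of the 5 passed the test between groups (0 genes; limma adjusted p from 0.0606 to 0.221). Among the members, Junb ranked 223 and Egr1 460 by nearness to Fos. Fosl2 ranked 1084, Jun 1249, Jund 1572, Atf3 1762, Fosb 7319 and Myc 11454. Atf3, which was called, thus ranked behind Fosl2, Jun and Jund, which were not.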

How the data were processed

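RNA of 6 crypt samples, 3 control and 3 Arid1a knockout by title and description, was labelled with Cy3 and hybridised to 1 one-colour Agilent array each, per the labels. The file headers name Agilent Feature Extraction 12.0.3.1 and the submitters' processing notes 11.5.1.1. Its processed intensity is background-subtracted within the array and not scaled between arrays, per the file headers. The same deposited files carry the scanner software's marks of saturated, outlying and above-background spots (0 were saturated). A series-wide table deposited by the authors gives log2 values on the 75th percentile scale, from which every probe's median had been subtracted. Its columns had medians of 0.196, 0.0610 and -0.325 (controls) and -0.0717, 0.216 and -0.184 (knockouts); its match to the scanner files was checked, and it served as an alternative.

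Here control and outlier spots were left out, the spots of a probe averaged, and the log2 signal taken relative to the 75th percentile of each array (signals of 295, 279 and 290 on controls 1 to 3, 292, 206 and 205 on knockouts 1 to 3). Probes were named by unversioned accession through a RefSeq table (33767 of 56605). Probes well above background on at least 3 arrays were kept, and the brightest stood for a gene. limma 3.58.1 (R 4.3.3) was fitted over 13496 genes with group as the only term, two-sided, with Benjamini-Hochberg adjustment, and was tested on simulated data. The "at least" fold sets the bright group's mean against the higher, per dim array, of the lowest signal well above background and the probe's own. The number of arrays limits the precision.

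The members, the gene lists, the tests and the alternatives were chosen with earlier results of these data known. Named genes were the 10 members, Arid1a, the 4 genes with the smallest p in each list and the 5 nearest to Fos, of which 1 gene is not reported here; others are marked as outside this rule or, for Hspa1a and Hspa1b, Ier2 and Nr4a1, were chosen after their values were seen. The replicate numbers were not taken as pairs. Alternatives were the labels, blocks, slide 1 alone, background correction, scaling, filter, probe choice, variance model, weights, the deposited table, the threshold and each array left out.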

Additional observations from a re-analysis of the deposited data

How the results depend on the processing

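The number of members called higher, 3, was 0 when grouped by source name and genotype, without both arrays with contradicting labels, with the array median and with no filter on dim probes, and 1 on slide 1 alone; leaving out 1 array gave 0 to 4. The number called lower, 0, was 1 with array weights (Myc) and 0 to 1 with 1 array left out. Of the genes on the 7 pathway lists, 28 were called; this was 0, 11, 14 and 15 with the other labels, without the contradicting arrays, on slide 1 and with no filter, 68 with array weights, 48 at an adjusted p under 0.1, and 16 to 63 with 1 array left out. Over all genes 2011 were called, and under the same settings 0 (207 at an unadjusted p under 0.05), 320, 689, 697, 4766 and 3445, and 638 to 4023. With the array median 28.7% of called genes were higher instead of 48.8%. Deviations from the group mean correlated at 0.246, 0.0792 and 0.353 between arrays sharing a replicate number, and at -0.281 to 0.0211 otherwise. Whether the numbers mark pairs is not known here, and control 3 and knockout 3 also share slide 2. With the replicate block 44 pathway genes and 2731 of all genes were called. Of the members this block called Fos (limma adjusted p = 0.0348) and Junb, while Atf3 and Egr1 had 0.0510 and 0.0558.

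Directions turned for Jun with the array median (-0.082) and with 1 array left out (-0.054 to 0.36), and for Fosb (0.10), Hsph1 (0.27) and Mt1 (-0.23) when grouped by source name and genotype. The median member difference on slide 2, 0.33, was -0.073 with the array median; on slide 1 it was 0.40 and 0.23. The cause was not tested where a call was lost; no filter tests more genes, and slide 1 alone and the left-out arrays use fewer samples.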
